A study of Canis lupus familiaris with 15 samples.

Results

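Aminoacyl-tRNA synthetases, the enzymes that join each amino acid to its transfer RNA, were measured in MDCK cells, a dog kidney epithelial line, after hepatocyte growth factor (HGF) with and without inhibitors of the MAPK pathway. The genes were chosen by annotation symbol alone: 1 letter followed by ARS, with or without a final 1 or 2, or EPRS1, FARSA or FARSB. The array annotation gave 33 such genes on 105 probe sets. Of these genes, 31 had a probe set that reached 4 on the log2 intensity scale on 3 or more arrays, out of 10287 genes measured by the same rule. They comprised 18 cytosolic enzymes and 13 mitochondrial ones, whose symbols end in 2. Mitochondrial AARS2 and PARS2 did not reach the filter, with highest values on any array of 3.66 and 2.98 log2. Just inside it were YARS2, with group means of 4.72 to 5.05, and SARS2, with group means of 5.08 to 5.11. GARS1 and MARS2 were not analysed here. Each gene was read from its brightest probe set.

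All cells were grown on Transwell filters for 7 days in MEM with 5% serum. The groups were HGF + PD (4 arrays, HGF at 100 ng/ml for 24 hours with PD09859 at 50 uM), HGF + UO (3 arrays, the same HGF with UO126 at 10 uM), HGF (4 arrays, HGF alone) and Control (4 arrays, medium only). The study asked which genes depend on the MAPK pathway after HGF. The replicates are labelled biological, with no word on whether each had its own culture, and the p-values therefore cover only array-to-array spread, which may be technical. All of the cells belong to a single line, and no group received an inhibitor without HGF.

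In animal cells most amino acids have a pair of nuclear genes for their synthetases, one serving the cytosol and one the mitochondrion. The cytosolic set supplies ribosomes that make nearly all cell proteins, while the mitochondrial set supplies the few proteins encoded by mitochondrial DNA. Several cytosolic synthetases sit together with scaffold proteins in the multisynthetase complex. Many cytosolic synthetase genes are known targets of ATF4, the transcription factor of the amino acid response in mammals.

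All 6 measured markers of kidney epithelium, of 7 listed, were present, with 1 higher and 3 lower in HGF than in Control (median -0.24 log2). Their summed intensity was 85647 to 104185 with HGF and 114403 to 126601 in Control, with no overlap. It was 82161 to 105058 with HGF + PD and 90228 to 98367 with HGF + UO, and 5 and 4 of the 6 were lower there than in Control. Over all probe sets 26.3% were higher and 29.2% lower in HGF than in Control. With HGF + PD and HGF + UO 14.3% and 10.3% of all probe sets were lower than in Control. KRT8 averaged 15.10 log2 in HGF cells and 15.11 in Control cells, and EPCAM averaged 14.59 in HGF cells and 15.32 in Control cells. CDH16, a cadherin of kidney tubules, was 3.00 log2 lower in HGF than in Control (limma adjusted p = 6.31e-09). Of the 6 leukocyte markers 3 were measured, with 1 higher, 1 lower and 1 not passing in HGF against Control (median -0.07 log2, lowest -0.15). CD68 ranged from 4.91 to 8.12 in HGF cells, against 3.18 to 3.31 in Control cells, which is under the filter level of 4. The summed intensity of the leukocyte list was 139 to 382 with HGF and 123 to 127 in Control, while PTPRC, CSF1R and ITGAM did not reach the filter. Fibroblast and endothelial lists had 3 of 7 and 3 of 5 markers measured, and their summed intensities overlapped between HGF and Control. The log2 ratio of 3′ to 5′ actin control probes, a sign of RNA integrity and labelling, was 1.38 to 1.56 on HGF arrays and 2.17 to 2.29 on Control arrays. It was 2.08 to 2.23 on HGF + PD arrays and 2.11 to 2.19 on HGF + UO arrays, and in both other actin probe pairs it was also lowest with HGF (exact permutation p = 0.0286 for HGF against Control in each, adjusted p = 0.0625 over 35 comparisons). The first of 2 GAPDH probe pairs read 1.90 to 1.97 on HGF arrays and 1.97 to 2.08 on Control arrays, a difference of -0.08, and was highest on HGF + UO arrays at 2.20 to 2.25. The second differed by -0.06 between HGF and Control. The part of the epithelial markers, of CD68 and of these ratios in the synthetase values below was not tested.

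**Figure D1:**
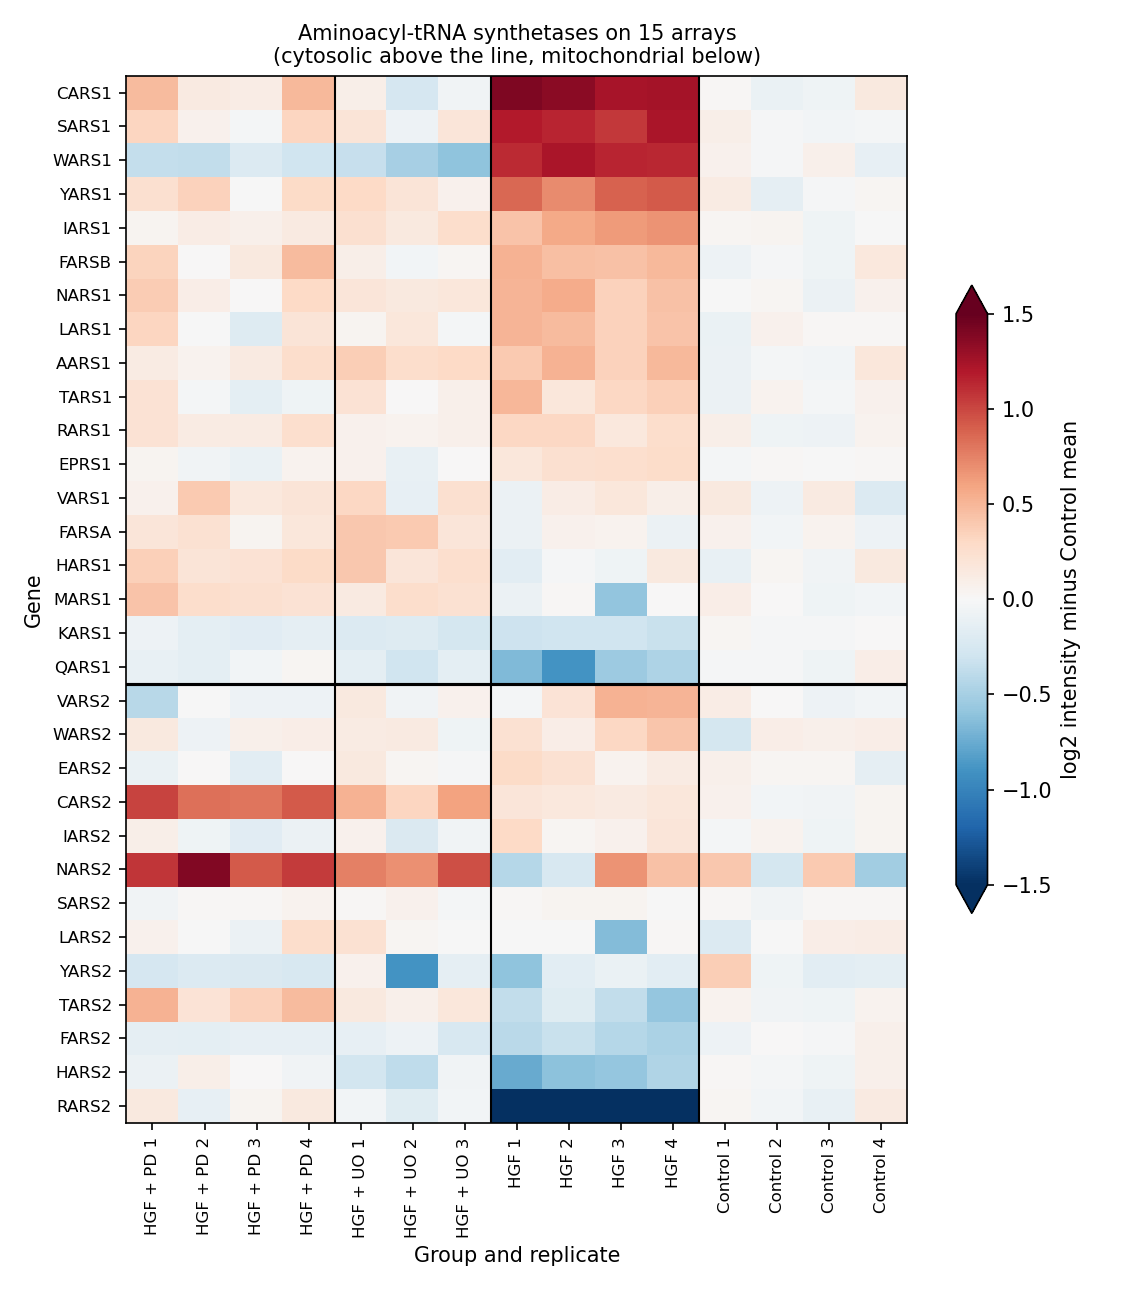
Log2 intensity of each of 31 synthetases on each of the 15 arrays (columns), minus the Control mean of that gene (colour; the scale ends at 1.5 either way). The cytosolic genes at the top are higher on HGF arrays, RARS2 at the bottom is lower there, and CARS2 and NARS2 are higher on the arrays with inhibitor.

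The cytosolic set was mostly higher with HGF. Of 18 cytosolic synthetases, 12 were higher in HGF than in Control, 2 were lower and 4 did not pass the test. Over all probe sets tested, 55.6% passed in this comparison, 26.3% higher and 29.2% lower; of the cytosolic synthetases 66.7% were higher and 11.1% lower. The median cytosolic change was 0.39 log2, beside -0.01 for all genes measured. The arrays measure RNA of the whole filter, so fewer cells that express a gene and less of its RNA per cell cannot be told apart. All 14 calls were also made under each of the 24 alternative settings that were run.

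The largest rises were those of CARS1, SARS1, WARS1 and YARS1, which charge cysteine, serine, tryptophan and tyrosine. CARS1 read 11.43, 11.38, 11.26 and 11.27 log2 on the HGF arrays and 10.05, 9.92, 9.96 and 10.17 on the Control arrays. SARS1 read 11.09, 11.05, 10.96 and 11.13 with HGF and 9.99, 9.88, 9.86 and 9.87 in Control. In both genes every HGF array lay above every Control array by more than the whole range within either group. The changes were 1.31 ± 0.10 log2 for CARS1 (SE, 2.48-fold, limma adjusted p = 4.01e-08) and 1.16 ± 0.08 for SARS1 (2.23-fold, adjusted p = 2.52e-08).

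WARS1 read 11.47, 11.58, 11.49 and 11.48 log2 with HGF and 10.42, 10.34, 10.43 and 10.23 in Control. YARS1 read 10.52, 10.36, 10.54 and 10.57 with HGF and 9.78, 9.51, 9.64 and 9.69 in Control. The groups did not overlap in either gene. WARS1 changed by 1.15 ± 0.06 log2 (2.22-fold, adjusted p = 1.02e-09), and its other 3 measured probe sets gave 1.01 to 1.14. YARS1 changed by 0.84 ± 0.08 log2 (1.79-fold, adjusted p = 7.28e-07). The tryptophan enzyme WARS1 is also known as an interferon-induced gene, and a secreted form of YARS1 is known to act as a signalling molecule.

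The other 8 cytosolic synthetases that rose changed by less. IARS1 for isoleucine was higher by 0.58 log2, FARSB, the beta subunit for phenylalanine, by 0.47, NARS1 for asparagine by 0.46, and LARS1 for leucine and AARS1 for alanine by 0.44 each. TARS1 for threonine was higher by 0.34, RARS1 for arginine by 0.26 and EPRS1, which charges both glutamate and proline, by 0.23. LARS1 is also known as a leucine sensor for the growth kinase mTORC1. Adjusted p-values of these 8 genes in the limma fit lay between 3.11e-07 and 0.00312. Of their measured probe sets, 1 of 2 passed for FARSB, 2 of 4 for AARS1 and 2 of 3 for RARS1. For EPRS1 3 of 4 passed and for IARS1 4 of 5, while each one passed for NARS1, LARS1 and TARS1.

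QARS1 and KARS1 moved the other way. QARS1, the glutamine enzyme, read 11.19, 10.96, 11.31 and 11.39 log2 with HGF and 11.84, 11.84, 11.79 and 11.96 in Control, with no overlap. It fell by 0.64 ± 0.08 log2 (1.56-fold, limma adjusted p = 6.15e-06), and 4 of its 4 measured probe sets were lower. KARS1, which makes the lysine enzyme of both cytosol and mitochondria from a single gene, averaged 14.43 ± 0.02 log2 with HGF and 14.74 ± 0.03 in Control (SD, n = 4 each) and fell by 0.31 ± 0.03 (adjusted p = 7.81e-08). Without KARS1 the cytosolic count was 12 higher and 1 lower of 17.

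Of the 4 cytosolic genes that did not pass, FARSA and HARS1 had the 2 smallest changes of the 31 synthetases. FARSA, the alpha subunit for phenylalanine, read 7.91, 8.07, 8.05 and 7.91 log2 with HGF and 8.06, 7.97, 8.05 and 7.92 in Control. HARS1 for histidine read 9.58, 9.72, 9.67 and 9.88 with HGF and 9.63, 9.76, 9.68 and 9.88 in Control. In both the groups overlapped over nearly their whole range, and the differences were -0.02 log2 each, with 95% intervals of -0.16 to 0.13 for FARSA and -0.19 to 0.14 for HARS1. FARSA and FARSB form one enzyme, and their values in HGF against Control were -0.02 and 0.47 log2. The second measured FARSB probe set gave 0.13 and did not pass, so this contrast rests on the brightest one. The remaining values were 0.07 for VARS1 (valine) and -0.16 for MARS1 (methionine).

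**Figure D2:**
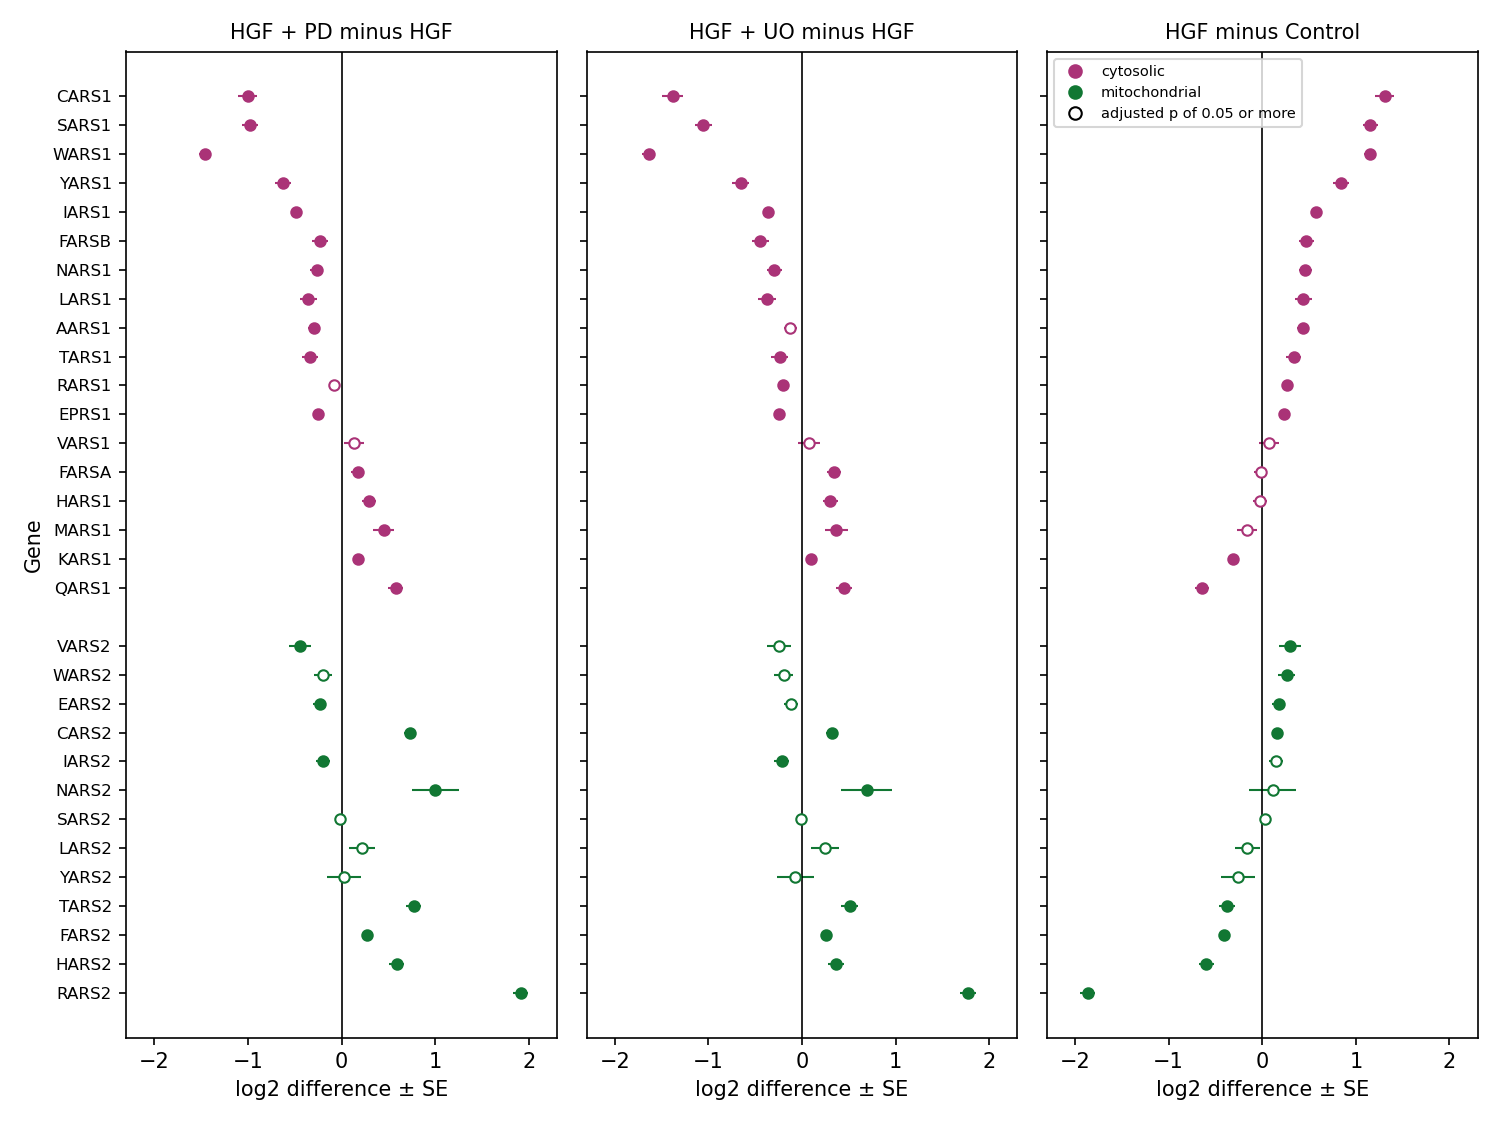
Log2 difference ± SE of 31 synthetases in 3 comparisons, with filled points where the adjusted p was under 0.05 and open points otherwise. The cytosolic genes with the largest differences of HGF minus Control lie left of 0 in both inhibitor panels, and RARS2 is lowest in HGF minus Control and highest against HGF with either inhibitor.

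The rises were found in both structural classes. Synthetases fall into class I and class II by the fold of their catalytic domain. In HGF against Control 7 of 10 cytosolic class I genes and 5 of 8 class II genes were higher, with 1 lower in each class. Over all probe sets 26.3% were higher and 29.2% lower, which is the background for each count in this paragraph. Of the 11 measured cytosolic genes often listed as ATF4 targets, 10 were higher and 0 were lower, with only MARS1 not passing, and their median was 0.46 log2. Of the 7 others, 2 were higher (FARSB and RARS1) and 2 lower, with a median of -0.02. That is 28.6% each way, near the shares of all probe sets. Among the 7 measured enzymes of the multisynthetase complex 4 were higher and 2 lower, and among the 11 outside it 8 were higher and 0 lower. The share lower in the complex, 28.6%, is near that of all probe sets. The difference between such groups was not tested.

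The mitochondrial set was split with HGF. Of 13 mitochondrial synthetases 4 were higher in HGF than in Control, 4 were lower and 5 did not pass, a share close to the 55.6% of all probe sets. The median was 0.03 log2. The 4 genes that were lower kept the call under each of the 24 alternatives, and none of the 4 that were higher did. Their number was 0 without HGF replicate 4, 1 without Control replicate 2 or 3, and 2 without Control replicate 4 or any of HGF replicates 1, 2 and 3.

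RARS2, the mitochondrial arginine enzyme, had the largest change of the 31 synthetases. It read 8.48, 8.71, 8.71 and 8.79 log2 on the HGF arrays and 10.57, 10.49, 10.42 and 10.66 on the Control arrays. Every HGF array lay far below every Control array, as the plot of levels shows. The difference was -1.86 ± 0.08 log2, 3.64-fold lower with HGF (limma adjusted p = 1.02e-10), and 1.7% of the genes measured had a lower value in this comparison. A single probe set measured the gene. RARS2 is a known disease gene of pontocerebellar hypoplasia in humans.

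HARS2 and FARS2 were lower too. HARS2, for mitochondrial histidine, read 7.47, 7.62, 7.64 and 7.78 log2 with HGF and 8.24, 8.20, 8.16 and 8.30 in Control. FARS2, for mitochondrial phenylalanine, read 10.91, 10.98, 10.88 and 10.84 with HGF and 11.24, 11.32, 11.30 and 11.39 in Control. Neither gene overlapped between the groups. HARS2 fell by 0.60 ± 0.08 log2 (adjusted p = 1.26e-05) and FARS2 by 0.41 ± 0.05 (adjusted p = 2.58e-06), with -1.09 for the other FARS2 probe set.

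HARS1 and HARS2 lie next to each other in the dog genome, with 0 genes between them in the UU_Cfam_GSD_1.0 annotation of RefSeq. Only HARS2 of this pair passed in HGF against Control, and the within-array difference of HARS1 and HARS2 moved by 0.58 log2 (exact permutation p = 0.0286, two-sided). TARS2, for threonine, fell by 0.38 ± 0.08 log2 (adjusted p = 0.00119). The mitochondrial genes that were higher were VARS2 by 0.30, WARS2 by 0.26, EARS2 by 0.17 and CARS2 by 0.16 log2. Of the mitochondrial class II genes 0 of 5 were higher and 3 lower, and of class I 4 of 8 were higher and 1 lower. Over all probe sets 26.3% were higher and 29.2% lower.

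**Figure D3:**
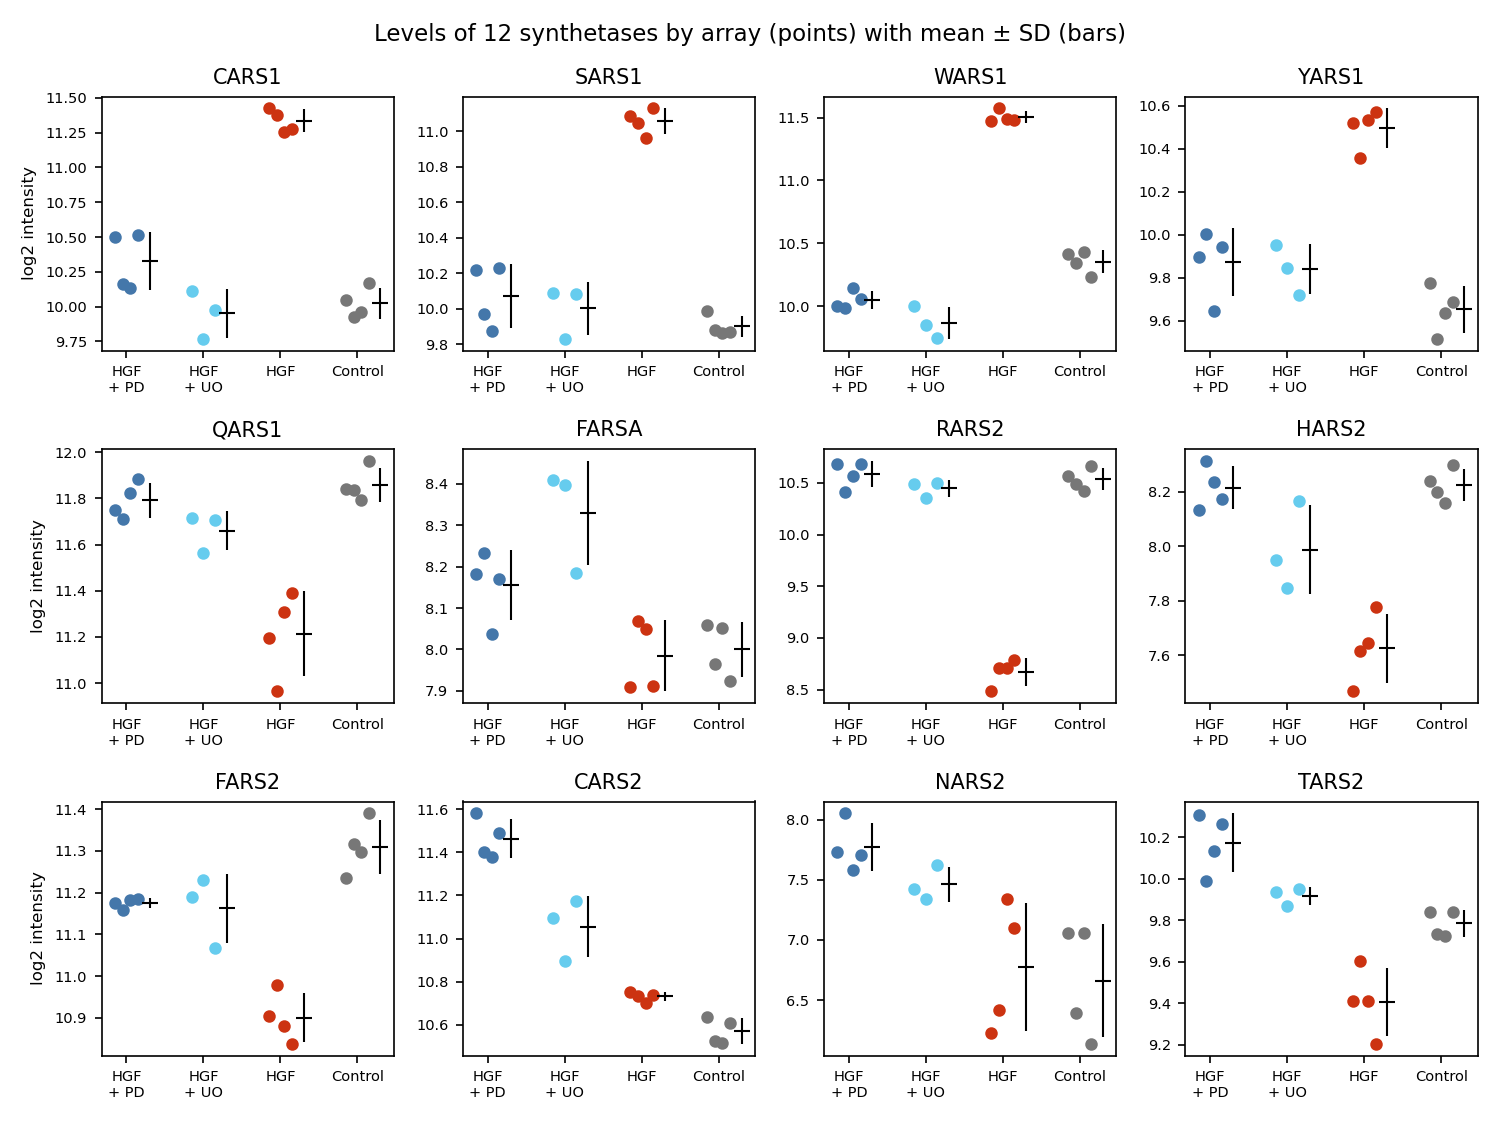
Log2 intensity of 12 synthetases on each array (points) with the group mean ± SD beside them, each panel on its own scale that does not start at 0. The HGF arrays stand above the other groups for CARS1, SARS1, WARS1 and YARS1 and below them for QARS1, RARS2, HARS2, FARS2 and TARS2, while CARS2 and NARS2 are highest on average with an inhibitor.

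Cytosolic and mitochondrial enzymes of the same amino acid changed unequally. The within-array log2 difference of the cytosolic and the mitochondrial gene was compared for 14 pairs, with a two-sided exact permutation test over arrays whose smallest possible p is 0.0286, unadjusted. The FARS2 gene enters 2 of these pairs, with FARSA and with FARSB. Such a difference shows unequal change and not which gene moved. In HGF against Control the cytosolic gene gained on the mitochondrial one in 11 pairs with no overlap between the arrays, the reverse held in 0 pairs, and 3 pairs overlapped. Over all probe sets 55.6% passed in this comparison. How often other pairs of genes separate in this way was not counted, so the pair counts have no background of their own. In 4 of the 11 the mitochondrial gene was SARS2, YARS2, LARS2 or WARS2, the 4 dimmest synthetases measured, with deposited values that recur between arrays on 3 to 5 of the 15 arrays, and they were set apart after these values were seen. At such levels a change of the mitochondrial gene may not be measurable, which also touches the WARS2 call. Of the other 10 pairs the cytosolic gene gained in 7 and the mitochondrial one in 0.

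In these 7 pairs the gain was 2.13 log2 for arginine (RARS1 and RARS2), 1.15 for cysteine, 0.88 for phenylalanine with FARSB and 0.71 for threonine. For histidine it was 0.58, for isoleucine 0.43 and for phenylalanine with FARSA 0.39. In the 4 pairs with a dim mitochondrial gene the difference was 1.13 for serine, 1.10 for tyrosine, 0.89 for tryptophan and 0.60 for leucine, where the cytosolic gene alone changed by 1.16, 0.84, 1.15 and 0.44. These 4 are not read as a shift between the compartments. The 11 pairs reached that smallest p of 0.0286 in the exact test. The histidine pair had a mitochondrial gene that fell beside a cytosolic one that did not pass. The overlapping pairs were valine (-0.23), asparagine (0.35) and glutamate (EPRS1 and EARS2, 0.06).

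**Figure D4:**
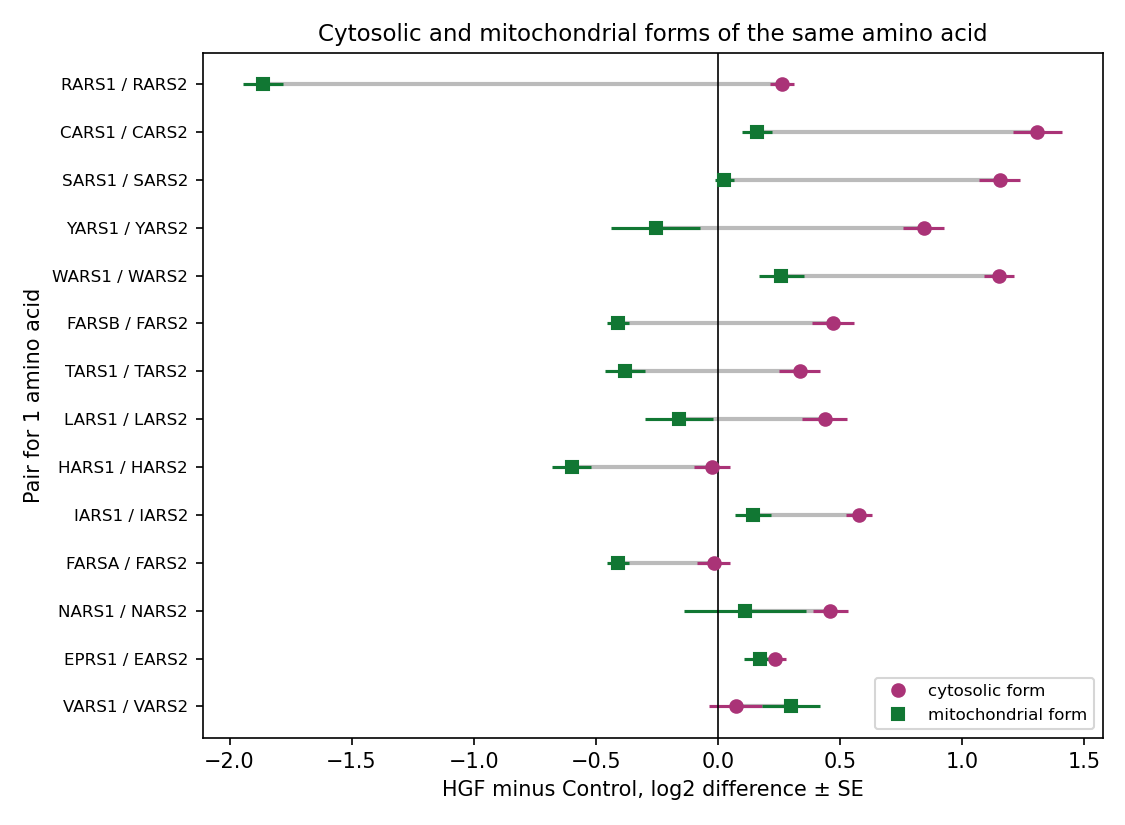
Change of HGF minus Control (log2 ± SE) of the cytosolic gene (circle) and the mitochondrial gene (square) for each of 14 pairs, ordered by the gap between them. The circle lies right of the square in 13 pairs, with the widest gap of 2.13 for arginine, and left of it for valine.

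With an inhibitor present the cytosolic synthetases were mostly lower than with HGF alone. In HGF + PD against HGF, 5 of 18 were higher and 11 lower, with a median of -0.26 log2. Over all probe sets 55.4% passed in this comparison, 30.3% higher and 25.1% lower. In HGF + UO against HGF, 5 of 18 were again higher and 11 lower, with a median of -0.24, while 52.4% of all probe sets passed, 27.2% higher and 25.2% lower. These comparisons share the HGF arrays with each other and with HGF against Control, so a gene high or low on those arrays moves in all 3. The 2 inhibitors were used at different concentrations, and their values are given side by side.

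WARS1 had the largest fall in both. It read 10.00, 9.99, 10.15 and 10.05 log2 with HGF + PD and 10.00, 9.85 and 9.75 with HGF + UO, against 11.47 to 11.58 with HGF. The difference from HGF was -1.46 ± 0.06 log2 with PD (2.75-fold lower, limma adjusted p = 8.95e-11) and -1.64 ± 0.07 with UO (3.11-fold lower, adjusted p = 7.65e-11). These levels were also below those of Control cells, which read 10.23 to 10.43. The other 3 WARS1 probe sets also read lower than in Control on average, by less with PD (-0.10 to -0.11, 0 of 3 passing), and with UO they gave -0.17, -0.21 and -0.47, of which -0.21 did not pass.

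CARS1 read 10.50, 10.16, 10.14 and 10.51 log2 with HGF + PD and 10.11, 9.77 and 9.98 with HGF + UO, against 11.26 to 11.43 with HGF. SARS1 read 10.22, 9.97, 9.87 and 10.23 with HGF + PD and 10.09, 9.83 and 10.08 with HGF + UO, against 10.96 to 11.13 with HGF. Each array with inhibitor lay below each HGF array in both genes. CARS1 fell by 1.01 ± 0.10 log2 with PD and by 1.38 ± 0.11 with UO, and SARS1 fell by 0.98 ± 0.08 and by 1.05 ± 0.09 (limma adjusted p between 6.15e-08 and 6.86e-07).

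YARS1 read 9.90, 10.00, 9.64 and 9.94 log2 with HGF + PD and 9.95, 9.85 and 9.72 with HGF + UO, all below the HGF arrays at 10.36 to 10.57. It fell by 0.62 ± 0.08 log2 with PD and by 0.66 ± 0.09 with UO (limma adjusted p = 1.61e-05 and 2.37e-05). IARS1 fell by 0.49 and by 0.36, LARS1 by 0.36 and by 0.38, and NARS1 by 0.27 and by 0.30. AARS1 fell by 0.29 with PD, while its value with UO was -0.13 and did not pass. Another AARS1 probe set gave -0.33 with PD and -0.32 with UO (limma adjusted p = 0.0112 and 0.0222). Of its 4 measured probe sets 2 passed with PD and 1 with UO. RARS1 fell by 0.20 with UO, where 1 of its 3 measured probe sets passed, while its value with PD was -0.09 and did not pass.

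The 5 cytosolic genes higher than with HGF alone were QARS1, MARS1, HARS1, FARSA and KARS1 with PD, and QARS1, MARS1, HARS1, FARSA and KARS1 with UO. QARS1 read 11.75, 11.71, 11.82 and 11.88 log2 with HGF + PD and 11.71, 11.56 and 11.71 with HGF + UO, against 10.96 to 11.39 with HGF. Its difference was 0.58 ± 0.08 log2 with PD (adjusted p = 1.90e-05) and 0.45 ± 0.09 with UO (adjusted p = 0.000447). HARS1 and FARSA, which did not pass in HGF against Control, were higher by 0.29 and 0.17 with PD and by 0.30 and 0.35 with UO. FARSA with PD no longer passed under 13 of the 24 alternatives, among them leaving out Control replicate 2 or 3, HGF replicate 1 or 4, or HGF + PD replicate 1, 2 or 4. KARS1 was higher by 0.18 with PD and by 0.09 with UO, neither of which passed with each array centred on its median (0.10 with PD, 0.04 with UO). MARS1 was higher by 0.45 with PD and by 0.37 with UO, the second not passing without HGF + UO replicate 2 or 3.

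Among mitochondrial synthetases 6 of 13 were higher and 3 lower in HGF + PD than in HGF, with a median of 0.22 log2. These are 46.2% and 23.1%, beside 30.3% and 25.1% of all probe sets. The median was 0.078 without HGF replicate 3 and 0.15 without HGF + PD replicate 4. In HGF + UO 6 were higher and 1 lower than in HGF, with a median of 0.24, which was 0.080 without HGF replicate 3. With UO the shares were 46.2% and 7.69%, beside 27.2% and 25.2% of all probe sets. The 6 not passing with UO leave a total share near the 52.4% of all probe sets that passed. RARS2, NARS2, TARS2, CARS2, HARS2 and FARS2 were higher with PD, and each was also higher with UO. The 1 lower gene with UO, IARS2 at -0.22, lost the call under 7 of the 24 alternatives, among them leaving out HGF replicate 1 or 4 or HGF + UO replicate 2 or 3.

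RARS2 read 10.68, 10.41, 10.57 and 10.68 log2 with HGF + PD and 10.49, 10.35 and 10.50 with HGF + UO, against 8.48 to 8.79 with HGF. These arrays overlapped the Control arrays, at 10.42 to 10.66. RARS2 was higher than with HGF alone by 1.91 ± 0.08 log2 with PD (3.77-fold, limma adjusted p = 7.97e-11) and by 1.78 ± 0.09 with UO (3.42-fold, adjusted p = 4.55e-10). HARS2 was higher by 0.59 and 0.36, TARS2 by 0.77 and 0.51, and FARS2 by 0.27 and 0.26.

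NARS2 and CARS2, the mitochondrial enzymes for asparagine and cysteine, are described here although they were chosen after their values were seen. CARS2 read 11.58, 11.40, 11.38 and 11.49 log2 with HGF + PD and 11.10, 10.90 and 11.17 with HGF + UO, against 10.70 to 10.75 with HGF and 10.51 to 10.64 in Control. Each inhibitor group lay above both HGF and Control cells. CARS2 was higher than with HGF by 0.73 ± 0.06 with PD (adjusted p = 9.91e-08) and by 0.32 ± 0.07 with UO (adjusted p = 0.000702). It was higher than in Control by 0.89 ± 0.06 and 0.48 ± 0.07 (adjusted p = 7.59e-08 and 9.24e-05).

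NARS2 read 7.73, 8.05, 7.58 and 7.71 log2 with HGF + PD and 7.42, 7.34 and 7.62 with HGF + UO. It was scattered without inhibitor, at 6.23, 6.42, 7.34 and 7.10 with HGF and 7.06, 6.39, 7.06 and 6.14 in Control. NARS2 was higher than with HGF by 1.00 ± 0.25 log2 with PD (adjusted p = 0.00343) and by 0.69 ± 0.27 with UO (adjusted p = 0.0449). Its second measured probe set gave 0.34 with PD and 0.19 with UO. The call with UO was lost under 12 of the 24 alternatives, with adjusted p up to 0.133. Leaving out any HGF + UO array, HGF replicate 1 or 2, or HGF + PD replicate 1, 3 or 4 was enough.

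With an inhibitor the within-array difference of many pairs moved toward the mitochondrial gene, which again does not show which gene moved. In HGF + PD against HGF the mitochondrial gene gained in 10 pairs with no overlap between arrays, the cytosolic gene in 1 (valine, 0.58 log2), and 3 pairs overlapped. In HGF + UO against HGF the mitochondrial gene gained in 8 pairs, the cytosolic gene in 0, and 6 overlapped. Over all probe sets 55.4% passed with PD and 52.4% with UO, and other pairs of genes were not counted. The 4 pairs of dim mitochondrial genes are again not read as a shift between the compartments. In the other 10 pairs the mitochondrial gene gained in 6 with PD and in 5 with UO, the asparagine and threonine pairs among these 5. The cytosolic gene gained in 1 and 0 of them, and 3 and 5 overlapped. The change of cytosolic minus mitochondrial was -2.0 log2 for arginine with PD and -1.97 with UO, and -1.74 for cysteine with PD and -1.71 with UO (exact permutation p = 0.0286 in each). Against Control the cytosolic gene gained in 6 pairs and the mitochondrial one in 4 with PD, and in 5 and 3 with UO. Without the 4 pairs of dim mitochondrial genes these counts were 5 and 3 with PD, and 4 and 2 with UO. The asparagine pair, counted for the mitochondrial gene with UO, had an exact permutation p of 0.143. Of all probe sets 34.4% and 22.3% passed in these 2 comparisons.

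The inhibitor groups were also set against Control. In HGF + PD against Control 4 of 18 cytosolic genes were higher and 2 lower, and 12 did not pass, while 34.4% of all probe sets passed, 20.2% higher and 14.3% lower. In HGF + UO against Control the counts were 4 higher, 2 lower and 12 not passing, while 22.3% of all probe sets passed, 11.9% higher and 10.3% lower. The mitochondrial counts were 3 of 13 with PD and 2 with UO on the higher side, and 1 each on the lower. Of the 31 synthetases 7 were higher and 3 lower with PD (22.6% and 9.68%), and 6 higher and 3 lower with UO (19.4% and 9.68%). These shares lie near those of all probe sets, and the higher share with UO lies above its background.

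WARS1, on its brightest probe set, and KARS1 were the cytosolic genes lower than Control in both, by 0.31 and 0.13 log2 with PD and by 0.49 and 0.22 with UO. CARS1 was higher than Control by 0.30 ± 0.10 log2 with PD (adjusted p = 0.0291), a call lost under 7 alternatives, among them leaving out Control replicate 2 or 3 or HGF + PD replicate 1 or 4. With PD 1 of the 5 measured CARS1 probe sets passed. With UO the difference of CARS1 was -0.07 ± 0.11 (limma adjusted p = 0.715). HARS1 was higher by 0.26 with PD and 0.28 with UO, the second lost without Control replicate 1 or 3 or HGF + UO replicate 1 or 3. Of its 3 measured probe sets 3 passed with PD and 1 with UO. FARSA was higher by 0.33 with UO, and AARS1 and IARS1 by 0.31 and 0.22, with IARS1 not passing without HGF + UO replicate 1 or 3. For FARSA, AARS1 and IARS1 in turn, 1 of 3, 1 of 4 and 1 of 5 measured probe sets passed there. The second FARSA probe set gave -0.02. TARS2 was higher by 0.39 with PD (limma adjusted p = 0.00211), where 2 of its 3 measured probe sets passed and the lowest gave -0.18. NARS2 was higher than Control by 1.11 ± 0.25 log2 with PD and by 0.80 ± 0.27 with UO (limma adjusted p = 0.00329 and 0.0476), and the call with UO was lost under 15 alternatives. These left out any HGF + UO or HGF + PD array, HGF replicate 4, or Control replicate 2 or 4, among others. FARS2 was lower by 0.13 and 0.15, and neither call held under each of the 24 alternatives.

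Agreement between probe sets of a gene differed between comparisons. Of 23 synthetases with more than 1 measured probe set, 18 had one sign on each of them in HGF against Control, 22 in HGF + PD against HGF and 21 in HGF + UO against HGF, with 0 genes called in opposite directions. Against Control 15 had one sign with HGF + PD and 13 with HGF + UO. With PD 1 gene, IARS1, named here for this count, had probe sets called in both directions, at -0.37 and 0.33, while its brightest at 0.09 did not pass.

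Genes that work beside the synthetases were read from the same fit. Of the 3 scaffold proteins of the multisynthetase complex, AIMP1 and EEF1E1 were higher in HGF than in Control, by 0.36 and 0.32 log2, and AIMP2 at 0.14 did not pass. In the list for ATF4 and the amino acid response 24 were measured. HGF cells had 17 of them higher and 5 lower than Control cells, 70.8% and 20.8%, beside 26.3% and 29.2% of all probe sets, and the median was 0.80. MTHFD2, a mitochondrial one-carbon enzyme, was higher by 4.03 log2, EIF4EBP1, a repressor of cap-dependent translation, by 2.82, and SHMT2, a mitochondrial enzyme that takes the carbon unit from serine, by 1.98. ATF4 itself, named after its value was seen, was higher by 0.85 ± 0.04 log2 with HGF (limma adjusted p = 1.18e-10) and lower than with HGF by 0.85 with PD and 0.91 with UO (changes of -0.85 and -0.91).

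Against the same 26.3% of all probe sets, amino acid transporters were higher in 6 of 6 measured genes of 10 listed, with a median of 1.48 log2 in HGF against Control. The neutral amino acid carriers SLC1A4, SLC38A2 and SLC38A1 were higher by 2.09, 2.02 and 1.55 log2. With PD 6 of these 6 were lower than with HGF, and with UO 5 were, beside 25.1% and 25.2% of all probe sets. Of 20 measured genes of transfer RNA maturation, export and proofreading, 12 were higher and 1 lower in HGF than in Control (60% and 5%, beside 26.3% and 29.2% of all probe sets). SEPSECS, the last enzyme of selenocysteine-tRNA synthesis, was higher by 1.74, the exportin XPO5 by 1.04, and DTD1, which removes D-amino acids from transfer RNA, by 0.97. XPOT, the transfer RNA exportin, stands in both this list and the ATF4 list.

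Of 7 cytosolic elongation factors measured, 1 was higher in HGF than in Control (EIF5A, 0.61 log2) and 4 were lower, among them EEF2 by 0.21 and EEF1B2 by 0.14 (changes of -0.21 and -0.14). Over all probe sets 26.3% were higher and 29.2% lower. In the list of mitochondrial translation factors and tRNA amidation, 13 genes were measured, 3 of them higher and 4 lower with HGF (median -0.01), close to the 26.3% and 29.2% of all probe sets. MTIF2, a mitochondrial initiation factor, fell by 0.97 log2, and MTIF3, another, was higher by 0.39. QRSL1 fell by 0.72. QRSL1 is a subunit of the enzyme that makes mitochondrial glutaminyl-tRNA, for which mammals have no separate synthetase gene. MTIF2 and QRSL1 were higher with inhibitor than with HGF alone, MTIF2 by 1.16 with PD and 0.88 with UO, and QRSL1 by 0.91 with PD and 1.18 with UO.

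**Figure D5:**
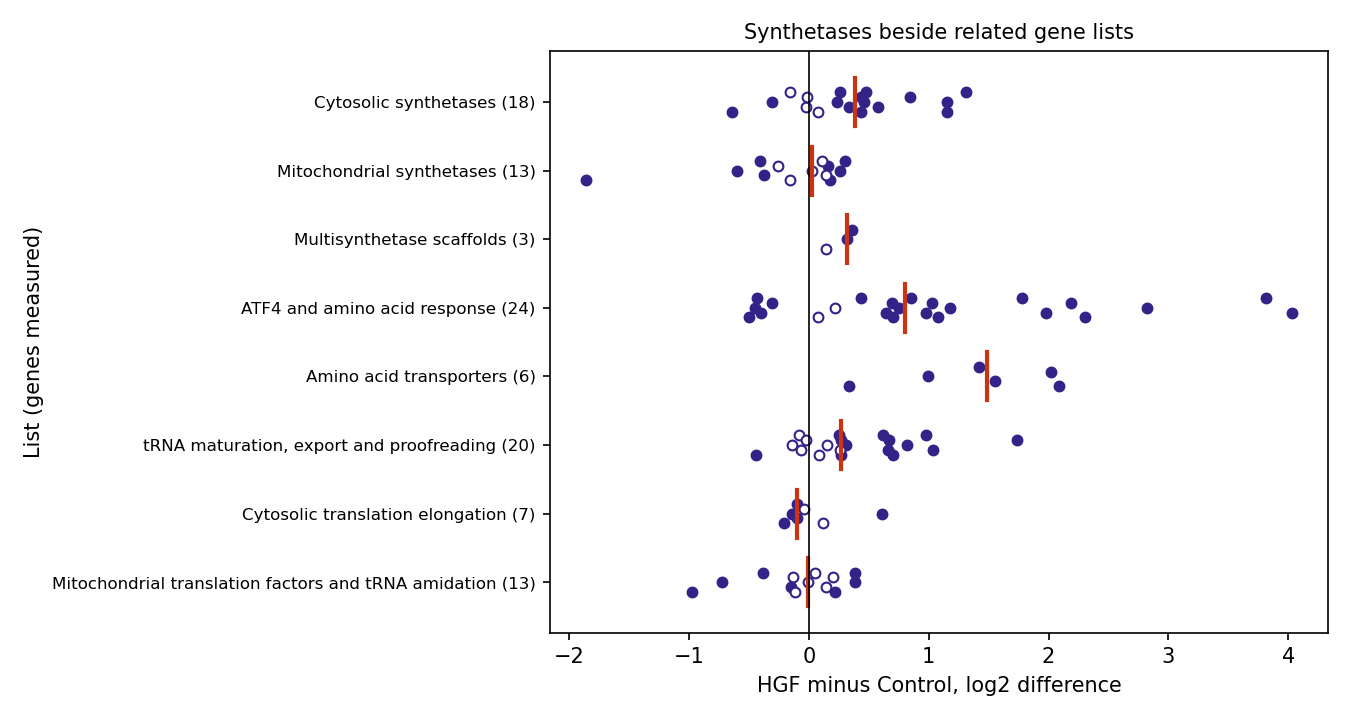
Change of HGF minus Control (log2) of each measured gene in the 2 synthetase sets and 6 related lists, filled where the adjusted p was under 0.05, with a red bar at the median. Cytosolic synthetases have a median of 0.39 and amino acid transporters one of 1.48, while the mitochondrial synthetases, with RARS2 at -1.86, and the mitochondrial translation factors have medians near 0.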

How the data were processed

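Total RNA of MDCK cells was hybridised to 15 Affymetrix canine arrays. The deposited values are linear intensities that the authors summarised with GCRMA, per the submitters' processing notes, which name no version. They were taken as log2 with no offset. Of 43035 probe sets, 111 controls were left out and 24904 (58.0%) kept at a log2 of at least 4 on at least 3 arrays. Names came from the platform annotation: 29254 probe sets had 1 symbol, 439 several and 13231 were unlisted. Of the 31 probe sets used, 13 have the suffix that marks a match to more than 1 transcript.

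Limma 3.58.1 in R 4.3.3 fitted 1 mean per group over 15 arrays (lmFit, eBayes with a variance trend), with Benjamini-Hochberg adjustment over the 24904 probe sets at a threshold of 0.05. "Higher", "lower", "rose" and "fell" refer to that test. On simulated data for HGF against Control, 18%, 68%, 98% and 100% of 50 probe sets changed by 0.25, 0.5, 1 and 2 log2 were recovered among 24904. In the data 55.6% of probe sets passed in that comparison, a far larger share than was changed in the simulation. The Benjamini-Hochberg cut-off was therefore looser in the data, and the shares recovered do not describe these calls. The number of arrays limits the precision. The members and gene lists were chosen with earlier results of these data known. Values per array are given for the 6 synthetases with the largest HGF change, the 2 with the smallest and the 3 mitochondrial ones with the largest; in related lists the 3 genes of lowest adjusted p are named. Alternatives changed the filter, scaling, offset, fit, probe sets, replicate block and arrays included. No sequence was used here.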

Additional observations from a re-analysis of the deposited data

Results flagged for a closer look

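Each group of 4 arrays was searched for a value far from the other 3, by Dixon's ratio at the 95% level, in each of the 31 synthetases. This gave 5 values in 93 groups, and chance gives about 1 in 20. LARS2 read 5.15 log2 on HGF replicate 3, where the others read 5.80 to 5.82. YARS2 read 4.44 on HGF replicate 1, below the 4.89 to 4.95 of the others. WARS2 read 5.67 on Control replicate 1, below 6.01 to 6.03. SARS1 read 9.99 on Control replicate 1, above 9.86 to 9.88, and without that array its call in HGF against Control was the same. SARS2 read 5.02 on Control replicate 2, where the other 3 arrays held the same value of 5.10.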

How the results depend on the processing

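Over the 24 alternatives, 0 called gene changes turned sign. Of 1380 single-gene values under other settings 1303 kept their side of the threshold, 57 lost the call and 20 gained one. With 1 array left out, 2201 of 2325 kept it. The filter settings also change which mitochondrial genes are counted. Without the filter AARS2 and PARS2 enter, and at log2 6 SARS2, YARS2 and LARS2 drop out, so those medians and counts are over other genes. In HGF against Control the cytosolic median was 0.31 after quantile normalization and 0.30 with all probe sets of a gene averaged, and the mitochondrial median was 0.13 at log2 6 and -0.065 to 0.034 with 1 array left out. Mitochondrial genes higher numbered 0 without the filter, 1 in a fit of the 2 groups and 0 to 4 with 1 array left out. In HGF + PD against HGF, centring left 3 cytosolic genes higher and gave medians of -0.34 (cytosolic) and 0.14 (mitochondrial). The mitochondrial median was 0.026 without the filter, 0.43 at log2 6, 0.13 with an offset of 32, and 0.078 to 0.27 with 1 array left out. In HGF + UO against HGF that median was -0.00947 without the filter, 0.15 with the offset and 0.080 to 0.29 with 1 array left out. Mitochondrial genes lower numbered 0 without the filter, after quantile normalization and in the fit of the 2 groups, 2 after centring, and 0 to 1 with 1 array left out. In HGF + PD against Control 2 cytosolic genes were higher after quantile normalization and 2 to 7 with 1 array left out, the cytosolic median was 0.10 with probe sets averaged, and mitochondrial genes lower numbered 0 with probe sets averaged and 0 to 1 with 1 array left out. In HGF + UO against Control the cytosolic count was 2 to 5 and the median 0.062 to 0.16 with 1 array left out. Mitochondrial genes numbered 1 higher and 0 lower without the filter, in the fit of the 2 groups, without the trend and with probe sets averaged, and 1 to 2 higher and 0 to 1 lower with 1 array left out. The cause of these moves was not tested. Same-numbered arrays of different groups had deviations correlated by -0.25 to 0.41 (median 0.05, 8 of 21 over 0.1), so the numbers were not taken to pair arrays. With the replicate block, 1 mitochondrial gene was higher and 0 lower in HGF + UO against Control.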
